A study of Rattus norvegicus with 9 samples.

Results

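The receptors that open a chloride channel when they bind GABA or glycine were followed through 7 of their subunit genes in rat lumbar spinal cord: Gabra2, Gabra3, Gabra5, Gabrb1 and Gabrg1 of the GABA-A receptor, and Glra1 and Glrb of the glycine receptor. The members were listed by gene name, and all 7 were found once each among the 34890 loci of the expression table. The list was drawn up with earlier results of these data known. The shares of all genes printed beside its counts are therefore a description and not an independent test of the list. RNA sequencing had been run on L3-L6 spinal cord of wild-type Sprague Dawley rats in 3 groups of 3 biological replicates. The paper describes male rats and RNA from the ipsilateral side of the cord. Dosing was by gastric infusion in the weeks after the operation, at a set volume per body weight, so values in mg/mL are concentrations of the solution. JA rats were sham-operated and given normal saline by mouth. SNI rats received the spared nerve injury, in which branches of the sciatic nerve are ligated and transected while the sural branch is left, and the same saline. PLM rats had the same injury and were given paeoniflorin at 20.65 mg/mL together with liquiritin, labelled 3.98, 3.99 and 3.100 mg/mL for replicates 1, 2 and 3. The methods describe a single dose for the whole group, the same as the label of replicate 1, so the labels of the other replicates may be in error. No group combined the drugs with sham surgery, and PLM shares its injury with SNI, so the drug effect is read only in injured animals. Expression was given as TPM, a level per unit of transcript length scaled to a fixed total per sample, and in bulk tissue fewer cells of a type and less RNA per cell cannot be told apart.

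GABA-A receptors are pentamers, most often of alpha, beta and gamma subunits. GABA binds between a beta and an alpha subunit, and the alpha and gamma subunits shape sensitivity to benzodiazepines and the place of the receptor in the membrane. Glycine receptors join alpha subunits, which carry most of the agonist site, to the beta subunit, which ties the receptor to the scaffold protein gephyrin. In the spinal dorsal horn both receptor families mediate fast inhibition, and loss of that inhibition is a well-known feature of neuropathic pain models.

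In the deposited values most genes sat lower in PLM than in SNI, so each change is given on 2 scales: as deposited, and after each sample was centred on its median log2(TPM + 1). The median gene differed by -0.21 between PLM and SNI as deposited and by 0.04 after centring, on the log2(TPM + 1) scale. The 13 mitochondrial protein genes took 31.3% to 32.8% of TPM in PLM, 23.7% to 26.1% in SNI and 25.3% to 32.8% in JA. Summed TPM of 16 neuron markers ran from 5082 to 9017 in JA, 8439 to 10662 in SNI and 7567 to 8715 in PLM, and none of them was at 0 in any sample. The 6 Schwann cell markers, found in nerve roots, summed to between 125.53 and 7897.18 TPM across the 9 samples, with JA 3 highest; its astrocyte marker sum was also the lowest of the JA samples. The part of these shifts in the results was not tested.

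On the chromosomes, 3 members are close neighbours. In the order of protein-coding genes in RefSeq (rat assembly GRCr8), Gabrb1, Gabra4, Cox7b2, Gabra2 and Gabrg1 follow each other on chromosome 14, Gabra5 lies beside Gabrg3 on chromosome 1, and Gabra3 lies between Gabre and Gabrq on chromosome X with a single other gene on each side. Glra1, on chromosome 10, and Glrb, on chromosome 2, have no other GABA or glycine receptor subunit gene among their nearest neighbours. The RefSeq promoter table used here matched 5 of the 7 members, Gabra3, Gabra5, Gabrb1, Gabrg1 and Glrb. The 250 bases before the annotated start are shown, 5′ to 3′ on the gene's strand, for both chromosome 14 members in the table, whose levels fell in PLM as deposited, and for the 2 members with the smallest changes. Capitals mark the CCAAT box (CCAAT) and the GC box (GGGCGG), on either strand.
Gabrg1, chr14:37750042-37750291, plus strand: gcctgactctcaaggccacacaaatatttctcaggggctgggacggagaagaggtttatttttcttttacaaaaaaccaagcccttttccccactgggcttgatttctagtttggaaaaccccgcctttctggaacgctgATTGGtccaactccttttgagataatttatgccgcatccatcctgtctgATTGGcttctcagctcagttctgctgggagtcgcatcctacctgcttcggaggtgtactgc
Gabrb1, chr14:36902894-36903143, minus strand: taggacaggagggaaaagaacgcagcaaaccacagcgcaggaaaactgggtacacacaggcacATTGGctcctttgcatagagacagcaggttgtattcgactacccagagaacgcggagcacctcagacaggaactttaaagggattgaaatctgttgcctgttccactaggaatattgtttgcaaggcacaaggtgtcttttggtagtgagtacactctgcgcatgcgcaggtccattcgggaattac
Gabra5, chr1:117516607-117516856, minus strand: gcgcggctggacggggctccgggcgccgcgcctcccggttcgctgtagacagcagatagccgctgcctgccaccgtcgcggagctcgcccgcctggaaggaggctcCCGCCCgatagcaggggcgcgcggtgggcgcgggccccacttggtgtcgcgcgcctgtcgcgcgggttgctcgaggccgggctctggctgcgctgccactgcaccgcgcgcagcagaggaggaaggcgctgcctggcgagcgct
Glrb, chr2:168505615-168505864, minus strand: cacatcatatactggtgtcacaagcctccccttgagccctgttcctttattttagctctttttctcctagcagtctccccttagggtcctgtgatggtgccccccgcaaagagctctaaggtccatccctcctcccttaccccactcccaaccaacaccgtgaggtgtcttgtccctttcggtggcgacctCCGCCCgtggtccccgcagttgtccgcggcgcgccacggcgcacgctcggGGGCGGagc
Gabrg1 held 2 CCAAT boxes, 110 and 61 bases before the start, and Gabrb1 held 1, at 187 bases, both on the opposite strand. Neither held a GC box. Gabra5 held 1 GC box and Glrb held 2, and neither held a CCAAT box. Of 33469 rat promoters of this length, 34.0% held a CCAAT box and 30.5% a GC box. GC content was 48.4% in Gabrg1 and 49.2% in Gabrb1, against 76.4% in Gabra5 and 61.2% in Glrb. The promoter of Gabra3 held 40.4% GC and 1 CCAAT box, and that of Gabra4, the chromosome 14 neighbour that is no member, held 71.6% GC, 1 GC box and no CCAAT box. Neither gene was called in PLM vs SNI, while Gabra4 lay lower in every PLM than in every SNI sample, as did 41.9% of all genes. TATA boxes (TATAAA) and E boxes (CANNTG) were counted too. Gabra3 held 1 TATA box (12.9% of all promoters), and Gabra5 and Glrb held 1 E box each (65.5%). These matches describe the letters of the window, in promoters picked partly by the changes of their genes, and show no binding.

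The levels themselves kept a similar order in the 3 groups. Glrb was the highest member and its range lay above that of the next in every group, with a mean TPM (± SD, n = 3) of 48.6 ± 9.53 for JA, 71.8 ± 7.69 for SNI and 59.6 ± 4.64 for PLM. Gabra2 was sixth and Gabrb1 lowest in every group, each with a range apart from its neighbours. Between them stood Gabra5, Gabrg1, Glra1 and Gabra3, whose neighbouring ranges overlapped in JA and in SNI. In PLM, Gabra5, Gabrg1 and Glra1 followed each other with ranges that did not overlap, while Glra1 and Gabra3 overlapped.

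**Figure D1:**
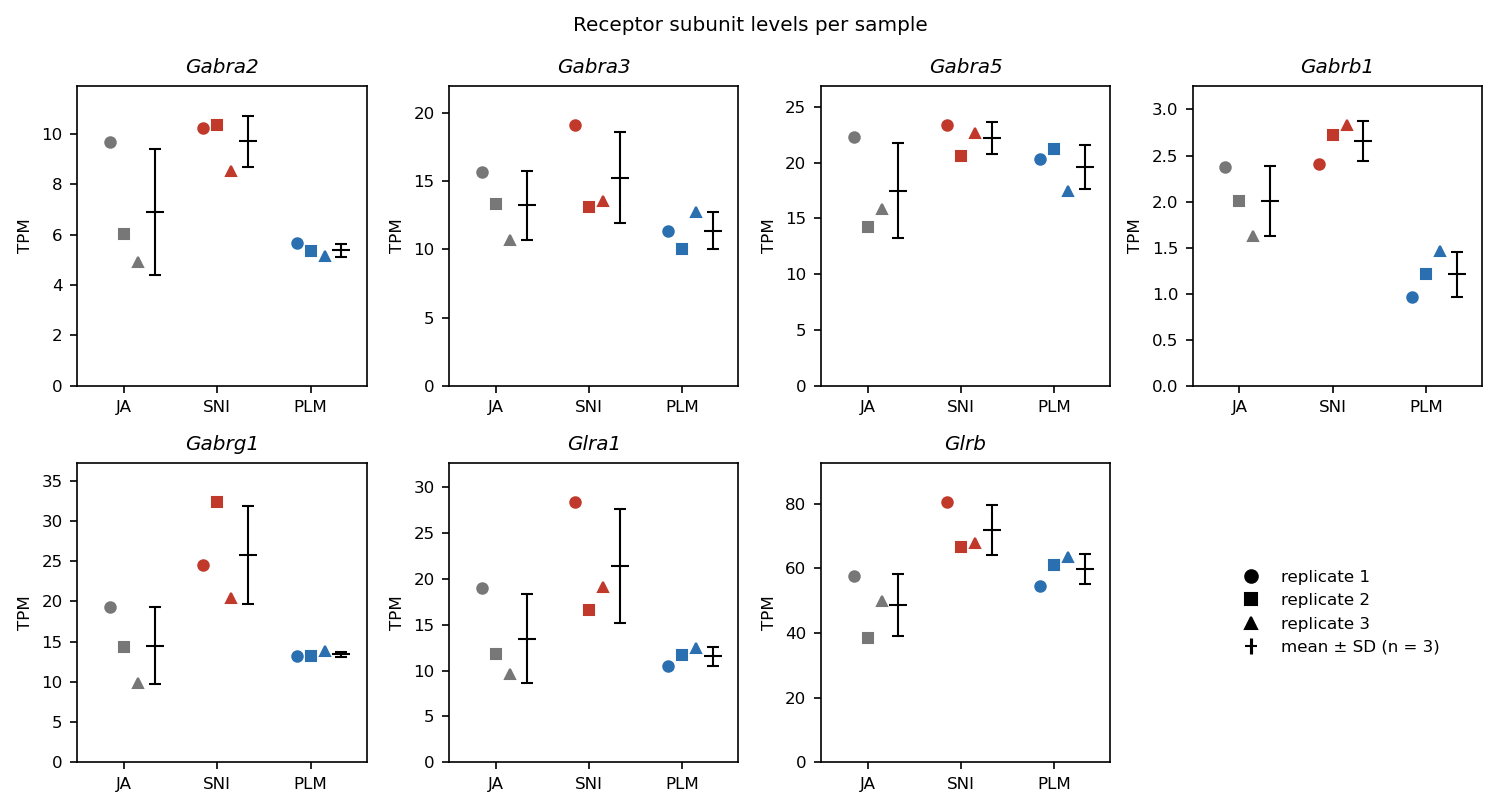
Level of each receptor subunit in TPM (vertical axis, starting at 0) for the 3 JA, 3 SNI and 3 PLM samples, with the mean and SD of each group beside the points. The PLM points lie below every SNI point in all panels but that of Gabra5, as for 41.9% of all genes tested, and the JA points are widely spread. After median centring, not drawn here, this held for 4 of 7 members, against 9.73% of all genes.

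PLM was compared with SNI to ask how the drug combination changed these genes in injured animals. As deposited, 4 of the 7 members fell, namely Gabra2, Gabrb1, Gabrg1 and Glra1, against 13.6% of the 15474 genes tested (limma, Benjamini-Hochberg adjusted p under 0.05), and none rose, against 0.246%. After median centring 0 of 7 passed, against 0.685% lower and 0.129% higher, while 4 of 7 had an unadjusted p under 0.05 (16.9% of all genes, either direction), and as deposited 5 of 7 had (37.1%). All 7 members lay below 0 as deposited, as did 85.0% of all genes, and 6 of 7 after centring, as did 42.4%. None passed an unadjusted p under 0.05 with a log2 fold change below -1, as 1.42% of all genes did. That count depends on the settings, since Gabrb1 was at -1.08 with 0.1 added to TPM in place of 1, and Gabrg1 reached -1.02 with 1 sample left out. The median over the members was -0.73, beside -0.21 over all genes as deposited, and -0.48 beside 0.04 after centring. Fewer members passed whichever sample was left out: as deposited, 0 without PLM 2 or without SNI 1, 1 without PLM 1 or without PLM 3, 2 without SNI 3 and 3 without SNI 2, and the share of all genes called lower fell to between 1.71% and 9.46%. Over these fits the log2 fold change ran from -0.82 to -0.70 for Gabra2, -0.81 to -0.65 for Gabrb1, -1.02 to -0.70 for Gabrg1 and -0.96 to -0.59 for Glra1.

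Gabra2 encodes the alpha2 subunit, found at dorsal horn synapses and studied as a target for pain relief by benzodiazepine-site ligands. It measured 10.21, 10.34 and 8.54 TPM in SNI and 5.66, 5.35 and 5.15 TPM in PLM. Every PLM sample lay below every SNI sample, as was so for 41.9% of all genes. The log2 fold change was -0.74 (SE 0.10, limma with Benjamini-Hochberg adjusted p = 0.0118) as deposited and -0.49 (adjusted p = 0.0924) after centring. In JA it measured 9.69, 6.04 and 4.91 TPM, a spread that took in all of PLM and part of SNI.

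Gabrg1 encodes the gamma1 subunit, which gives receptors of low benzodiazepine sensitivity. It had the largest difference among the members on the log2(TPM + 1) scale with all samples, although the mean of Gabrb1 in PLM was a smaller share of that in SNI (45.7% against 52.1%). Gabrg1 measured 24.54, 32.38 and 20.45 TPM in SNI and 13.27, 13.21 and 13.81 TPM in PLM. The PLM samples lay within 1 TPM of each other and below all SNI samples. The log2 fold change was -0.87 (SE 0.16, limma with Benjamini-Hochberg adjusted p = 0.0254) as deposited and -0.62 (adjusted p = 0.14) after centring. Gabrb1, the beta1 subunit, is a minor transcript here, at 2.41, 2.72 and 2.83 TPM in SNI and 0.97, 1.21 and 1.46 TPM in PLM. Its groups did not overlap, and the log2 fold change was -0.73 (SE 0.14, limma with Benjamini-Hochberg adjusted p = 0.0291) as deposited and -0.48 (adjusted p = 0.156) after centring. Since 1 was added to every TPM, this value understates the change of so low a gene; with 0.1 added it was -1.08.

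Gabra3 and Gabra5 did not pass on either scale. Gabra3, the alpha3 subunit of synaptic receptors, measured 19.10, 13.11 and 13.57 TPM in SNI and 11.37, 10.01 and 12.76 TPM in PLM. The groups were apart only narrowly, and the log2 fold change was -0.38 (95% interval -0.76 to 0.00, limma with Benjamini-Hochberg adjusted p = 0.137) as deposited, -0.22 without SNI 1, and -0.13 (adjusted p = 0.697) centred. Gabra5, the alpha5 subunit known for tonic inhibition outside synapses, measured 23.35, 20.60 and 22.66 TPM in SNI and 20.30, 21.18 and 17.42 TPM in PLM, which overlapped. Its log2 fold change of -0.17 (95% interval -0.40 to 0.05, limma with Benjamini-Hochberg adjusted p = 0.224) as deposited turned to 0.08 (adjusted p = 0.766) after centring, and as deposited it was -0.09 without PLM 3.

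Of the glycine receptor subunits 1 of 2 was called lower as deposited, against 13.6% of all genes. Glra1, the main alpha subunit of adult cord and the gene of hereditary startle disease, measured 28.38, 16.64 and 19.09 TPM in SNI and 10.47, 11.67 and 12.49 TPM in PLM, without overlap. Its log2 fold change was -0.80 (SE 0.19, limma with Benjamini-Hochberg adjusted p = 0.0427) as deposited and -0.56 (adjusted p = 0.199) centred, where it was -0.36 without SNI 1. Glrb, the beta subunit, measured 80.60, 66.71 and 67.94 TPM in SNI and 54.43, 61.16 and 63.34 TPM in PLM. These too did not overlap, but the difference of -0.26 (limma with Benjamini-Hochberg adjusted p = 0.109) was close to that of the median gene, and after centring it was -0.01 (95% interval -0.20 to 0.17, adjusted p = 0.951). On the centred scale 4 of 7 members lay wholly below SNI, the same 4 called as deposited, against 9.73% of all genes.

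**Figure D2:**
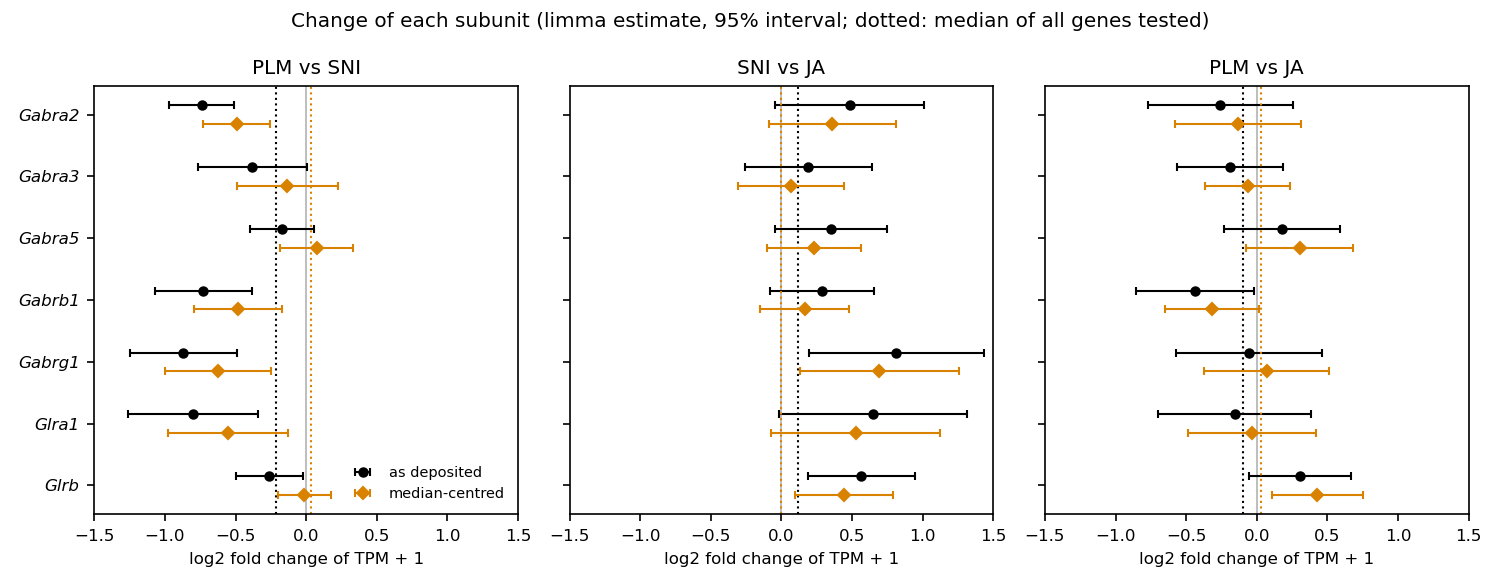
Log2 fold change of TPM + 1 (horizontal axis) of each subunit in the 3 comparisons, as deposited (black) and median-centred (orange), with 95% limma intervals and dotted lines at the median of all genes tested. In PLM vs SNI, Gabra2, Gabrb1, Gabrg1 and Glra1 lie at -0.73 or below as deposited, and their centred intervals stay below 0.

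SNI was compared with JA to ask what the injury changed; the same SNI samples serve here and in the comparison with PLM, so the 2 sets of values are not independent. No gene of the 15557 tested passed at an adjusted p under 0.05 in limma on either scale, and 7.10% had an unadjusted p under 0.05 as deposited and 4.83% after centring. All 7 members had a positive log2 fold change, where 23.6% of all genes were below 0, with a median of 0.48 beside 0.12 over all genes, and 2 of 7, Gabrg1 and Glrb, had an unadjusted p under 0.05 on either scale. Gabrg1 measured 19.32, 14.32 and 9.81 TPM in JA, all below SNI, with a log2 fold change of 0.81 (limma, Benjamini-Hochberg adjusted p = 0.614). Glrb measured 57.50, 38.55 and 49.83 TPM in JA, also all below SNI, with a log2 fold change of 0.57 (limma, Benjamini-Hochberg adjusted p = 0.614). With Gabrb1, 3 of 7 members lay wholly above JA, against 12.1% of all genes; after centring 2 did, Gabrg1 and Glrb, against 623 of the 15557 genes. Glra1 measured 18.93, 11.84 and 9.62 TPM in JA, where JA 1 exceeded SNI 2, and its log2 fold change was 0.65. The alpha subunits overlapped too, with Gabra3 at 15.68, 13.31 and 10.65 TPM and Gabra5 at 22.31, 14.24 and 15.86 TPM in JA. The remaining members had log2 fold changes between 0.19, for Gabra3, and 0.48, for Gabra2; Gabra3 was 0.03 without SNI 1, 0.05 without JA 3 and 0.31 without JA 1, and Gabra2 was 0.73 without JA 1 and 0.30 without JA 3. With all samples every member had an adjusted p of 0.614 or above in limma. Some cell type markers lay in the same direction: all 16 neuron markers were above 0 with a median of 0.31, the 5 motor neuron markers tested had a median of 0.96, all 6 Schwann cell markers were above 0 with a median of 0.58, and all 20 astrocyte markers were above 0 with a median of 0.47, none of them called. Others lay the opposite way, with 11 of 12 oligodendrocyte, 8 of 11 microglia, 5 of 5 endothelium, 3 of 4 meninges and fibroblast, 4 of 4 ependyma and 4 of 4 blood markers below 0 and medians from -0.33 for blood to -0.06 for endothelium, none of them called either. On neuron centring the values were 0.40 for Gabrg1, 0.24 for Glra1, 0.16 for Glrb and 0.07 for Gabra2, and below 0 for Gabra3, Gabra5 and Gabrb1. The part of these markers in the result was not tested.

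PLM was set beside JA to compare treated injured with sham animals. Of 15349 genes tested, 2 were lower and 1 higher in limma at an adjusted p under 0.05 (0.0130% and 0.00652%), none of them a member, and 1 of 7 members had an unadjusted p under 0.05 as deposited (11.8% of all genes) and 1 after centring (9.98%). Gabrb1 measured 2.38, 2.01 and 1.63 TPM in JA, above every PLM sample, as for 15.7% of all genes, with a log2 fold change of -0.44 (limma, Benjamini-Hochberg adjusted p = 0.412). For Glrb the value was 0.30 as deposited and 0.43 after centring (limma, Benjamini-Hochberg adjusted p = 0.494 for both), and without JA 2 it was 0.15 and 0.28. On the centred scale every PLM sample exceeded every JA sample for Glrb, as for 9.51% of all genes, and every PLM sample was still below every JA sample for Gabrb1, as for 6.93%. The remaining members lay between -0.26, for Gabra2, and 0.18, for Gabra5, as deposited; Gabra2 was -0.02 without JA 1 and -0.44 without JA 3, and Gabra5 was 0.36 without JA 1 and 0.05 without JA 2. JA 1 was the highest JA sample for all 7 members, and without it the values of Gabrg1 and Glra1 turned from -0.05 and -0.16 to 0.16 and 0.10.

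A share of TPM within a receptor class does not move with a common scaling, so the make-up of each class was compared too, in 24 two-sided exact permutation tests over 8 shares and ratios, of which 7 are described. With 3 samples against 3 the smallest p is 0.1, so none could pass 0.05, and 0.436 was the lowest Benjamini-Hochberg value. Gabra2 made up 17.0% ± 1.95 of alpha subunit TPM in SNI, 12.1% ± 0.530 in PLM and 14.8% ± 2.32 in JA, with every PLM sample below every SNI sample (exact p = 0.1). Gabrg1 made up 44.1% ± 7.01 of gamma subunit TPM in SNI, 33.1% ± 1.07 in PLM and 37.3% ± 7.64 in JA (SD, n = 3), again with PLM wholly below SNI (exact p = 0.1). The ratio of Glra1 to Glrb was 0.294 ± 0.0526 in SNI and 0.193 ± 0.00333 in PLM, without overlap (exact p = 0.1), and 0.276 ± 0.0731 in JA. The share of Gabra5 among alpha subunits, 38.9% ± 3.02 in SNI and 44.1% ± 4.38 in PLM, overlapped (exact p = 0.2). The shares of Gabra3 and of Gabrb1 overlapped in every comparison. Glra1 made up 84.3% ± 1.98 of glycine receptor alpha TPM in SNI and 77.7% ± 5.27 in JA, without overlap (exact p = 0.1). These groups were apart only narrowly, with the lowest SNI sample at 82.0%, the highest JA sample at 81.7% and JA 3 at 71.7%. The share in PLM was 81.2% ± 1.08, which overlapped both.

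**Figure D3:**
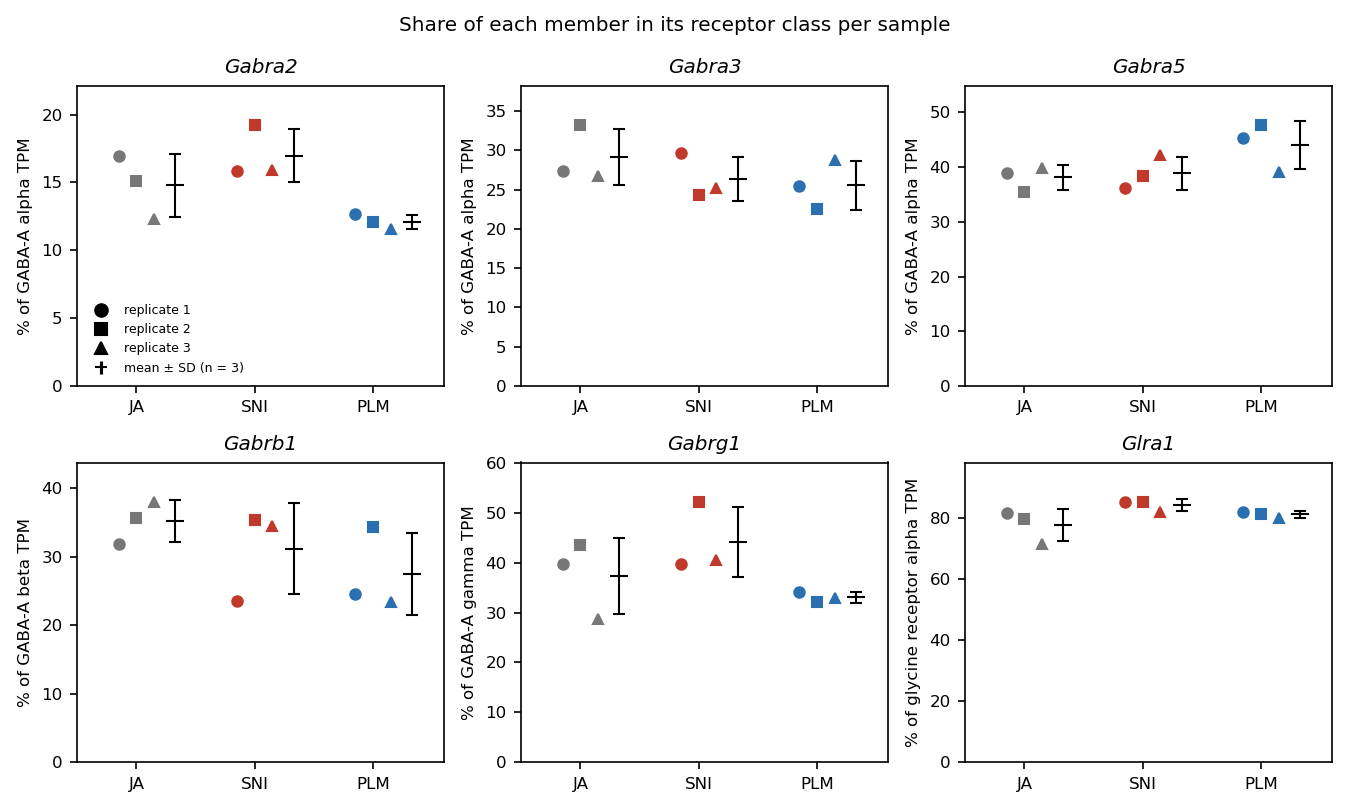
Share of each member in the summed TPM of its receptor class (vertical axis, percent) in each of the 9 samples, with the mean and SD of each group beside the points. The PLM points lie below every SNI point for Gabra2 and Gabrg1, and the groups overlap for Gabra3, Gabra5 and Gabrb1.

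Among the other subunits, 4 of 14 GABA-A genes and 1 of 3 glycine receptor genes passed the filter on low values in PLM vs SNI, and none of these 5 passed the test. Gabra4, on chromosome 14 between Gabrb1 and Gabra2, measured 2.31, 2.09 and 1.65 TPM in SNI and 1.23, 0.78 and 1.34 TPM in PLM, without overlap, and its log2 fold change was -0.52 (limma, Benjamini-Hochberg adjusted p = 0.0885). Glra2, a glycine receptor alpha subunit of the developing cord, had a value of -0.36 and overlapping groups. Both GABA-B receptor genes found, of 5 listed, fell as deposited, with Gabbr1 at -0.44 and Gabbr2 at -0.52, and neither passed after centring, against 13.6% and 0.685% of all genes lower on the respective scales.

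Genes that build and place the receptors were counted next. Of 22 genes for clustering, assembly and trafficking, 4 fell, 0 rose and 18 did not pass as deposited, against 13.6% of all genes lower, with a median of -0.18 beside -0.21, and 0 passed after centring, with a median of 0.07. The 4 were Lhfpl4, which joins GABA-A receptors to neuroligin, at -0.66, Clptm1, which holds receptors back in the secretory pathway, at -0.40, the transport adaptor Trak1 at -0.33 and Ubqln1 at -0.27. Of 15 genes for the supply of GABA and glycine and for chloride, 6 fell, 0 rose and 9 did not pass as deposited, against 13.6% of all genes lower, and 3 fell after centring, against 0.685%. Among the 3 were Slc6a11, a GABA transporter of astrocytes, at -1.80 as deposited, and the GABA-degrading transaminase Abat at -1.01. The glycine transporter Slc6a9 fell by 0.59 on the log2 scale as deposited.

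Of 20 astrocyte markers, 19 fell in PLM vs SNI as deposited and 12 after centring, against 13.6% and 0.685% of all genes. Their medians were -1.29 and -1.05, and none was at 0. Their summed TPM was 5736.74 to 9676.53 in JA, 8547.68 to 9908.21 in SNI and 4545.26 to 5305.29 in PLM, so PLM lay below both other groups. In PLM vs JA all 20 were below 0, with a median of -0.86, where 71.2% of all genes were below 0. Of the members 5 of 7 were below 0, with a median of -0.16 and values from -0.44 for Gabrb1 to 0.30 for Glrb. Within JA the astrocyte sum was highest in JA 1 and lowest in JA 3. Gabra2, Gabra3, Gabrb1, Gabrg1 and Glra1 followed that order of samples, and Gabra5 and Glrb did not. Of the 16 neuron markers 0 were called on either scale, with medians of -0.19 and 0.06. At an unadjusted p under 0.05 there were 4 and 2 of them, against 37.1% and 16.9% of all genes, either direction. Of 8 inhibitory neuron markers 0 were called, with medians of -0.19 and 0.05 and 2 and 0 at an unadjusted p under 0.05. Of 5 motor neuron markers tested 1 fell as deposited and 0 after centring, with medians of -0.49 and -0.24. The 4 blood markers found lay higher in every PLM than in every SNI sample, as did 1.59% of all genes, with a median of 0.82 as deposited. Of these markers 0 were called, while 3 had an unadjusted p under 0.05 in limma. All 6 Schwann cell markers were below 0, with a median of -0.66, and the 4 meninges and fibroblast markers had a median of -0.61, without a call. Of 12 oligodendrocyte markers 0 were called on either scale. After centring 0 of them were below 0 and 6 had an unadjusted p under 0.05. For 7 of them every centred PLM value was above every SNI value. Of 11 microglia markers 1 fell as deposited. After centring, the microglia markers had a median of 0.29 with 8 at an unadjusted p under 0.05, against 16.9% of all genes, either direction. On that scale 4 of 5 endothelium markers were higher in every PLM than in every SNI sample, against 14.1% of all genes. Neither list held a call after centring. The part of these shifts in the change of the members was not tested. When samples were centred on the neuron markers instead of the median gene, Gabra2, Gabrb1, Gabrg1 and Glra1 had log2 fold changes of -0.53, -0.52, -0.66 and -0.60, and 0 members passed (0.233% of all genes were called lower).

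**Figure D4:**
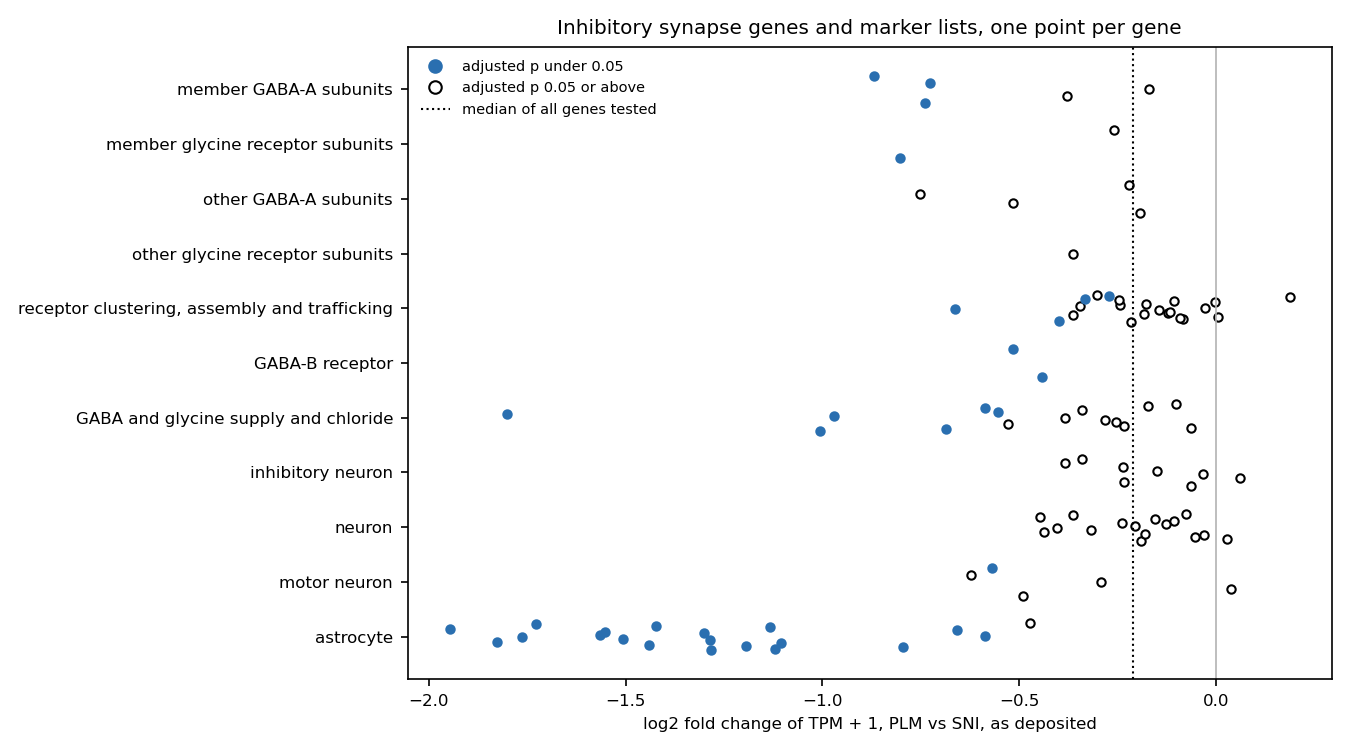
Log2 fold change of TPM + 1 in PLM vs SNI as deposited (horizontal axis) for each tested gene of the members, the other inhibitory synapse lists and 4 cell type marker lists, with filled points for a Benjamini-Hochberg adjusted p under 0.05 in limma. Astrocyte markers lie far below the dotted median of all genes at -0.21, while neuron and inhibitory neuron markers lie around it.

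Across the 9 samples on the centred scale, the members did not all vary together. Gabra2 followed Gabrg1 (Pearson r = 0.893) and Glra1 (r = 0.811), and Glrb followed Gabra5 (r = 0.769), while Gabra5 and Gabrb1 had r = -0.277. These values describe 9 samples that include the group differences. Among 13946 genes, those most like each member were Gpt, Dipk1c and Cap2 for Gabra2 (r = 0.966 to 0.970), Map3k4, Cdh20 and Abhd6 for Gabrg1 (0.961 to 0.967), and Fibin, Trim34 and Septin9 for Gabrb1 (0.948 to 0.969). For Glra1 they were Unc13a, Ppp4r4 and Gabbr2 (0.975 to 0.990), and for Glrb they included Scamp1 and Esrrg (0.965 and 0.962). For Gabra5 they were Abcb6, Ube2k and Tango2 (0.969 to 0.979), and for Gabra3, Hmgxb3, Zfp775 and Senp2 (0.933 to 0.937).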

How the data were processed

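RNA of 9 L3-L6 spinal cord samples had been sequenced from TruSeq libraries, and the authors deposited 1 table of TPM per locus. The submitters' processing notes name CASAVA, fastp 0.19.5, StringTie and the build GRCh38.p13, a human build, whereas most identifiers are rat Ensembl genes; the build used was not resolved and no coordinate was taken from the table. TPM sums to the same total in every sample and keeps no depth, so depth is unknown and no counting interval is given. Loci averaging 1 TPM or more in a comparison were tested on log2(TPM + 1) with limma 3.58.1 in R 4.3.3 (trended variance, 2 groups at a time, no covariate), with Benjamini-Hochberg adjustment over all of them; a gene was called at an adjusted p under 0.05. The limma steps were also run on simulated independent values without a common shift of the unchanged genes, so that run does not bear on the scaling. Fold changes are differences on the log2(TPM + 1) scale, as deposited or after subtracting each sample's median. Shares were compared by exact permutation in scipy 1.17.1. The members and gene lists were chosen with earlier results of these data known. Named genes were the 7 members, other subunits past the filter, at most 4 genes of each list by smallest p in PLM vs SNI, and the 3 genes with the highest r for each member. Alternatives covered scaling, pseudocount, filter, samples fitted, a replicate block and leaving out each sample. Of the 8 shares and ratios tested, 1 ratio was added after the data were seen; it and some listed genes are not reported here, while counts and class sums keep them. Motifs were first counted in whole windows of 300 bases and, after those counts were seen, limited to the 250 bases before the start so that no transcribed base is shown; the wider window gave 3 GC boxes in Glrb and otherwise the same CCAAT and GC box counts for the members.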

Additional observations from a re-analysis of the deposited data

How the results depend on the processing

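The count of 4 members lower in PLM vs SNI, as deposited, is given here with the share of all genes called lower in brackets. It was 0 after median centring (0.685%), 0 after quantile normalization (0.853%), 1 with mitochondrial protein genes removed (1.66%), 0 when centred on neuron markers (0.233%), 1 with all 9 samples in 1 fit (3.09%) and 0 under an unadjusted p under 0.05 with an absolute log2 fold change above 1 (1.42%). With 1 sample left out it ranged from 0 to 3 as deposited and was 0 throughout after centring; causes other than fewer samples were not tested. With 0.1 added it was 4 (14.1%), without a filter 3 (5.63%), without a variance trend 3 (9.22%), and with a filter on every sample 3 of the 6 members tested (18.7%). Samples with the same replicate number did not vary together (r from -0.0461 to 0.126 over 15503 genes), so the numbers were not taken as pairs; with a replicate block 0 members passed as deposited, where 151 of all genes were lower (0.976%), and 0 after centring, where 0 of 15474 genes passed. Counts of 0 in the other comparisons stayed 0. Directions that turned were as follows. In PLM vs SNI, Gabra5 was 0.0753 after median centring, with or without the block, 0.0648 after quantile normalization and 0.0351 on neuron centring. With centring and 1 sample left out it was 0.0182, 0.0269 and 0.183 without PLM 1, 2 and 3, and 0.0935, 0.0282 and 0.105 without SNI 1, 2 and 3; Glrb was 0.0185 without PLM 1 and 0.0549 without SNI 1, and Gabra3 0.0120 without SNI 1. In SNI vs JA on neuron centring, Gabra3 was -0.220, Gabra5 -0.0583 and Gabrb1 -0.123, and centred Gabra3 was -0.0778 without SNI 1 and -0.0289 without JA 3. In PLM vs JA, Gabrg1 was 0.0692 centred, with or without the block, 0.0575 after quantile normalization and 0.000132 without mitochondrial genes, and Gabra5 was -0.0232 on neuron centring. Leaving out 1 sample as deposited gave Gabrg1 from -0.290 to 0.165 and Glra1 from -0.354 to 0.10. After centring, Gabrg1 was 0.0434, 0.0860 and 0.0780 without PLM 1, 2 and 3, 0.245 without JA 1 and 0.0909 without JA 2, Gabra3 was 0.0216 without PLM 2, and without JA 1 Gabra2 was 0.0652, Gabra3 0.0136 and Glra1 0.180. No share could pass the test at this sample size, so the alternatives for the shares do not bear on stability. With 3 animals a group and no depth, small differences, such as that of Gabra5, are not resolved.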
